A study of Mus musculus with 20 samples.

Results

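The 5 libraries of batch 3, 1 from each of 5 sorted cell populations of the mouse subventricular zone, were compared with the 10 libraries of batches 1 and 2, 2 from each of the same populations, out of 20 libraries in all. Members were taken by the batch number that the labels give to each library. The populations were neural stem cells (NSC) and 4 kinds of progenitor, PFMP, GRP3, GRP2/MP3 and BNAP/GRP1, and the digit after a population's name is the batch. Where 5 values of batch 3 follow each other they are in the order PFMP, GRP3, GRP2/MP3, BNAP/GRP1, NSC. All groups shared the same source and treatment: Swiss Webster pups at postnatal day 5, with no genetic change and no agent named, dissociated with Liberase and sorted live by the surface antigens CD133, LeX, CD140a and NG2. According to the methods of the study, tissue from both sexes of a litter was pooled, and RNA was amplified from its polyA tails before sequencing. The labels do not say what a batch shared beyond its number, so everything that set batch 3 apart cannot be told apart from the batch itself, and p-values measure only the spread between these libraries.

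The subventricular zone lies under the wall of the lateral ventricle and holds stem cells with astroglial traits, ependymal cells with motile cilia, and dividing progenitors of neurons and oligodendrocytes. Blood and lung express quite other genes. Red cells hold globin mRNA, macrophages hold lysozyme and, once stimulated, chemokines, B lineage cells hold immunoglobulin mRNA, and the secretory cells of the airway hold secretoglobins. Marker genes of these cell types were grouped into 48 lists, and 6 gene families were taken by symbol. Values are RPKM, in which read numbers are divided by the length of the gene and the size of the library, so that levels are per length and can be set side by side between genes, as far as the gene lengths used were right. The RPKM of a library summed to 955067 to 2407643 in batches 1 and 2 and to 1394526 to 1435076 in batch 3, so equal values are not equal shares of 2 libraries. Differences are on the scale of log2(RPKM + 1), batch 3 minus batches 1 and 2 within each population, fitted with limma over 16947 genes that reached 1 RPKM in at least 5 of the 15 libraries. A gene low elsewhere can pass this filter through the 5 batch 3 libraries alone, so its call is not independent of the filter. Counts over the tested members of a list are to be read with this limit. They are also to be set against the shares of all tested genes, 24.2% higher and 33.8% lower.

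The libraries of batch 3 were close to each other and far from those with which they share a population. Over all 45705 genes, Pearson's r of log2 values lay between 0.940 and 0.970 within batch 3, whereas between a batch 3 library and the library of its own population in batch 1 or 2 it had a median of 0.740, against 0.704 for other populations. Between any 2 batch 3 libraries, 76.9% to 85.5% of the genes compared (low genes whose values came out as whole reads) differed at the 5% level of a chi-square test. Between the batch 1 and batch 2 libraries of the same population it was 34.1% to 78.8%, though the genes compared and the depths were others. That test covers counting error only and takes reads of amplified RNA as independent, so whether the batch 3 libraries share a source of RNA was not tested. Judged from the smallest steps between values, batch 3 libraries were at 0.733 to 1.41 of the depth of BNAP/GRP1 1, the deepest of batches 1 and 2, while the other 9 were at 0.118 to 0.365. They had 20116 to 22578 genes above 0, against 22006 to 31999 in batches 1 and 2. The part of depth in the differences below was not tested.

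At an adjusted p under 0.05, 4095 genes were higher in batch 3 (24.2% of those tested) and 5731 were lower (33.8%). In 2739 genes (16.2%) all 5 batch 3 libraries lay above all 10 others, and in 2323 (13.7%) they lay below. The median difference over all genes was -0.32, and it moved to -0.20 under median-of-ratios scaling and to -0.19 under quantile normalization, so list medians are to be read against it. The largest differences were not symmetrical: 978 genes were higher by more than 3 on the log2 scale and 684 were lower by more than 3. In bulk libraries such as these, fewer cells of a type and less RNA per cell cannot be told apart.

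**Figure D1:**
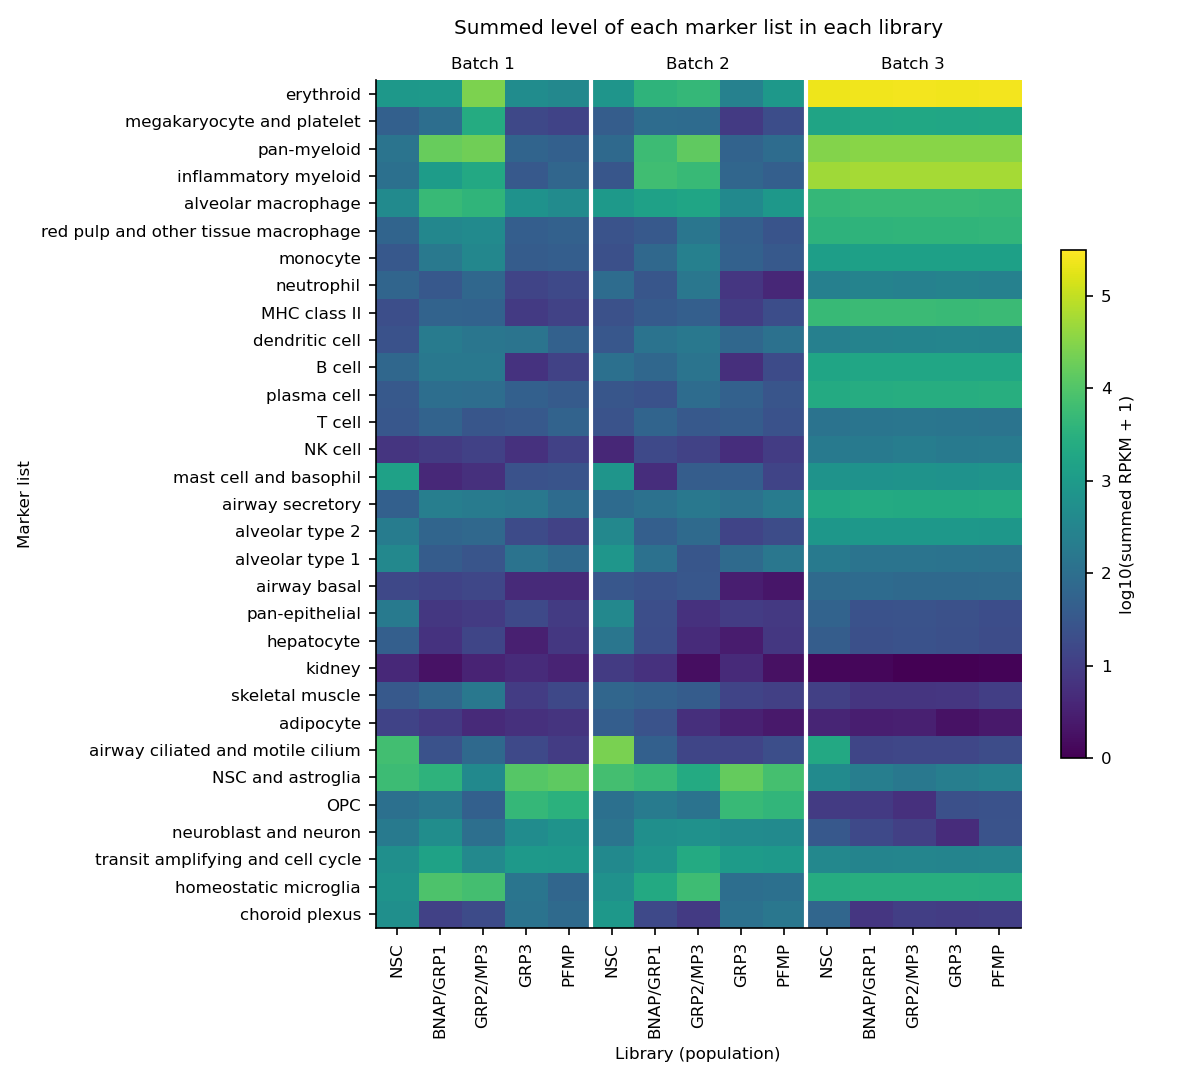
Summed RPKM of the members of 31 marker lists (rows) in the 15 libraries of batches 1 to 3 (columns), as log10(sum + 1). The 5 columns of batch 3 are nearly alike, with high erythroid, myeloid, B lineage and airway secretory rows. Astroglial, OPC and neuronal rows are low in batch 3. The homeostatic microglia row, at 2583 to 2851 RPKM, lies within the 63.2 to 9422 of batches 1 and 2. The motile cilium row separates NSC 3 from the other 4.

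Red cell mRNA was the largest single component. Hbb-bs, the adult beta globin gene (chromosome 7 of GRCm38 from 103826534 to 103828096), reached 102862, 100178, 103020, 98873 and 91652 RPKM in the 5 libraries. In batches 1 and 2 it ranged from 24.7 to 6345 with a median of 256, so the groups did not overlap, and the log2 difference was 8.34 (SE 0.74, adjusted p = 1.67e-06 by limma). Hba-a1, an alpha globin gene, had 48715 to 53106 RPKM in batch 3, with a mean of 51631, against at most 4373 in the others, and it may share reads with its near-identical copy Hba-a2. The highest globin values outside batch 3 were those of GRP2/MP3 1, whose erythroid list summed to 26534 RPKM.

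Of the 15 erythroid genes, 7 passed the filter, of which 6 were higher and 1 lower, with a median difference of 6.66. The list held 15.9% to 17.9% of all RPKM in batch 3 and 0.0271% to 1.22% in batches 1 and 2. Alas2, which encodes the first enzyme of haem synthesis in red cells, was at 201 to 227 RPKM in batch 3 and had a median of 0.485 in the others. The embryonic globin Hbb-y was listed at 0 in all 5 libraries and Hbb-bh1 averaged 0.161 RPKM. Genes of red cell precursors were near 0 as well, with a mean of 0.177 RPKM for the transcription factor Klf1 and 0.164 for the anion exchanger Slc4a1. The erythroid sum was thus nearly all adult globin, with Slc25a37 at 18.5 RPKM called higher, Bpgm at 13.2 called lower, and 7 members under 1 RPKM in every batch 3 library.

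Platelet and neutrophil genes were mixed. Pf4, a platelet chemokine, had 1583 to 1917 RPKM in batch 3, but it overlapped with GRP2/MP3 1 at 2365. Of the 7 tested genes of the megakaryocyte and platelet list, 3 were higher and 1 was lower, and the receptor genes Gp5, Gp6 and Gp1ba stayed under 0.15 RPKM on average. Neutrophil genes were at lower levels: S100a8, an abundant calcium-binding protein of these cells, had 95.0 to 105 RPKM, Ltf (lactoferrin) had 49.5 to 66.0, and Mpo, Elane and Ly6g averaged under 1 RPKM. Of 20 neutrophil genes 12 were tested, of which 8 were higher and 0 lower, with a median of 1.88. All 20 summed to 249 to 287 RPKM in batch 3 and to 3.16 to 154 in batches 1 and 2.

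Genes of activated macrophages came next. Saa3, an acute-phase serum amyloid that stimulated macrophages express (chromosome 7 from 46711998 to 46715700), had the largest rise of all named genes. It was at 24245, 23475, 23645, 23681 and 21804 RPKM. In batches 1 and 2 the lowest was 0, the median 0.154 and the highest 6.97, so every batch 3 library lay far above every other. The log2 difference was 13.91 (SE 0.38, adjusted p = 5.61e-11 by limma). Lyz2, the lysozyme of myeloid cells, stood at 20269 to 22692 RPKM in batch 3 and had a median of 6.26 and a highest value of 1200 in the others.

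Neutrophil-attracting chemokines and interleukins rose with them. Cxcl2 had 6309, 6223, 6201, 6001 and 5707 RPKM, against a median of 5.52 and a highest value of 812 in batches 1 and 2. Its difference was 8.47 on the log2 scale (SE 1.10, adjusted p = 4.55e-05 by limma). Cxcl1 averaged 5155 RPKM, Cxcl3 627, the macrophage chemokine Ccl3 5549, and the cytokines Il1b, Il1a, Tnf and Il6 averaged 4096, 2453, 1219 and 435. All of these were called higher. Of the 21 members of the inflammatory myeloid list, 19 were higher and 0 lower, 16 lay above all 10 other libraries, and the median was 7.26. Only Nfkbiz, at 0.90, and Csf1, at -0.05, were not called.

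Because these chemokine genes moved together, the 250 bases upstream of their RefSeq start (GRCm38.p6) were searched on both strands for GGG, any 3 bases and TTCC, a form of the kappaB sequence that NF-kappaB proteins bind, and for TGANTCA, an AP-1 sequence. Among the 17 genes of the inflammatory list with a promoter in the table, 7 (41.2%) held the first and 4 (23.5%) the second, whereas among all 27025 genes searched the shares were 5.31% and 7.82%. Among 12 of the 15 largest rises both shares were 16.7%, and among 11 airway secretory genes they were 9.09% and 18.2%. The inflammatory list was chosen by gene name, so its shares describe its members and not batch 3. The neighbours Cxcl1, Cxcl2 and Cxcl3 on chromosome 5 are shown because each held 3 matches to the first, in capitals, of which a pair overlap. All 3 lie on the plus strand.
Cxcl1, chr5:90890995-90891244: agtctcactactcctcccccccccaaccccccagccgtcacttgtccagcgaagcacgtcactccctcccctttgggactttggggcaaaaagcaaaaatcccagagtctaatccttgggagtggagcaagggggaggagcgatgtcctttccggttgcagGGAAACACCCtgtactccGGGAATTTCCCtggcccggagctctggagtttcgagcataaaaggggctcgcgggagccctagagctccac
Cxcl2, chr5:90903649-90903898: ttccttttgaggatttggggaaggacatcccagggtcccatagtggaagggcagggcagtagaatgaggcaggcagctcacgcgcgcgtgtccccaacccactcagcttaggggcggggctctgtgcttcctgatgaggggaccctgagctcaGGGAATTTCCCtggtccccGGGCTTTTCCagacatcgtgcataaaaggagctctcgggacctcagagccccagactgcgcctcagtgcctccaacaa
Cxcl3, chr5:90785851-90786100: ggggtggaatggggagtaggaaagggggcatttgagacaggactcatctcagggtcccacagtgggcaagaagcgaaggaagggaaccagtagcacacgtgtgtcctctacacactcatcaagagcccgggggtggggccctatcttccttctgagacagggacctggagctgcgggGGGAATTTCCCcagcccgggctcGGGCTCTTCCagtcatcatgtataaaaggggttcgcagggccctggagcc
The overlapping pair began 71 bases before the start in Cxcl1, 97 in Cxcl2 and 73 in Cxcl3. The windows of Saa3 and Il1b held no match to these letters, and a match is a description of the sequence, not a bound site.

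The macrophage genes included those of the lung. The alveolar macrophage list had 23 members, all tested, of which 21 were higher and 0 lower, with a median of 4.39 and 18 members above all other libraries. Its summed level did not separate the groups, with 4534 to 5101 RPKM in batch 3 and 5032 in BNAP/GRP1 1. Chil3, a chitinase-like protein made in quantity by alveolar macrophages, was at 611, 658, 617, 621 and 558 RPKM in the 5 libraries and at most 0.881 in batches 1 and 2 (log2 difference 9.01, SE 0.23, adjusted p = 4.48e-11). Chil3 thus passed the filter through batch 3 alone. The scavenger receptor Marco had 78.8 to 87.7 RPKM and at most 1.47 in the others, the eosinophil-associated ribonuclease Ear2 309 to 398 against a median of 0.0322, and the transcription factor Pparg averaged 19.2 RPKM and rose by 3.82. Ccl6, Ctsk, Fabp4 and Atp6v0d2 averaged 738, 472, 149 and 265 RPKM. Fabp5, although it averaged 1152, was not called, since the others had a median of 670.

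Markers of macrophages elsewhere varied widely in level. Hmox1, the haem-degrading oxygenase, averaged 3811 RPKM and had at most 60.5 in batches 1 and 2, and Cd5l and Timd4 averaged 34.9 and 19.7. Of the 8 tested genes of the red pulp and tissue macrophage list, 5 were higher and 1 lower, while Spic averaged 0.940 RPKM and the Kupffer cell gene Clec4f was listed at 0 in all 5. That list summed to 3615 to 4085 RPKM in batch 3, most of it Hmox1, against at most 418 in batches 1 and 2. Among monocyte genes, 10 of 13 were higher, led by F10 at 444 RPKM and Plac8 at 384, but the circulating monocyte receptor Ccr2 averaged only 2.52.

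**Figure D2:**
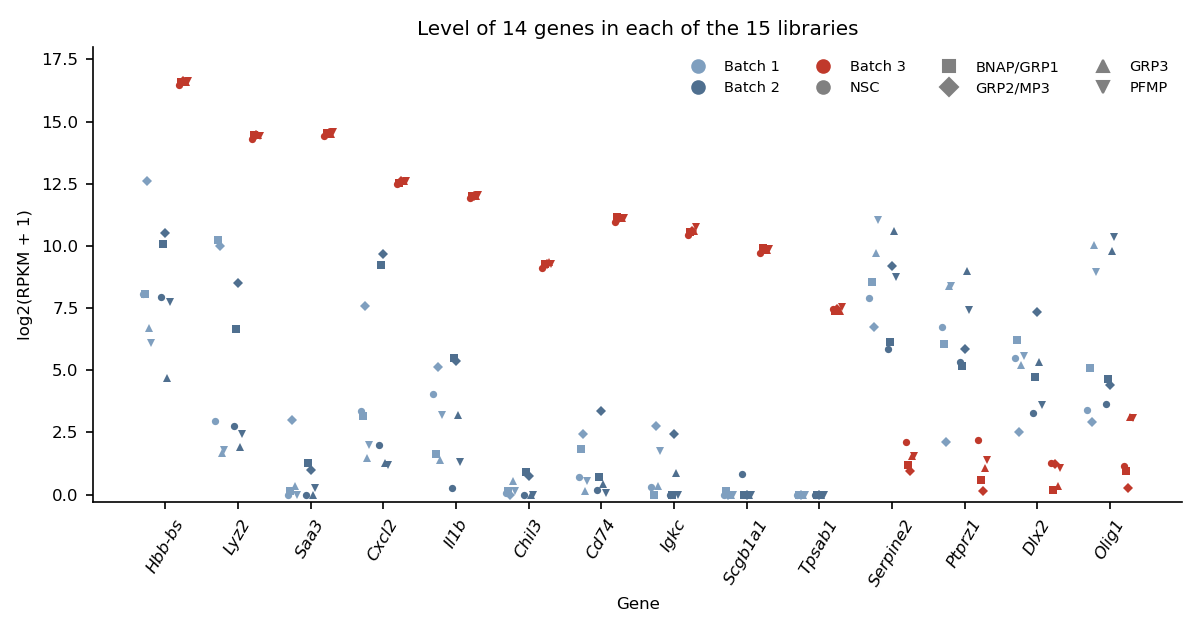
log2(RPKM + 1) of 14 genes in each library, coloured by batch and with 1 symbol per population. For the 10 genes from Hbb-bs to Tpsab1 the 5 batch 3 points lie together above all 10 others, and for the 4 brain genes at the right they lie low, with GRP3 3 and PFMP 3 above the rest for Olig1.

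Antigen presentation and the B lineage were as uniform. All 10 MHC class II genes were higher in batch 3, and in all 10 the groups did not overlap. Cd74, the invariant chain that escorts class II molecules, had 2010 to 2278 RPKM in batch 3 and at most 9.42 elsewhere, with a log2 difference of 10.05 (SE 0.38, adjusted p = 7.18e-10). H2-Aa had 1389 to 1561 against at most 3.98. Of 12 dendritic cell genes tested, 9 were higher and 2 lower, and the mature dendritic cell genes Ccr7 and Ccl17 averaged 36.5 and 62.0 RPKM, whereas Xcr1, Flt3 and Clec9a averaged under 1.

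All 17 B cell genes rose, with a median of 4.57. Ighm, the mu heavy chain, was at 842, 840, 820, 845 and 762 RPKM and at most 47.3 in batches 1 and 2 (log2 difference 7.35, SE 0.67, adjusted p = 2.10e-06). The B cell receptor subunits Cd79b and Cd79a averaged 231 and 70.0 RPKM, and Ms4a1 averaged 78.7. Igkc, the kappa light chain, had 1381 to 1720 RPKM against at most 5.83, and the plasma cell list had 15 of 16 tested genes higher. The isotypes were unequal: Ighd averaged 70.1 RPKM and Ighg3 35.6, but Igha only 4.10, Ighg1 1.10 and Jchain, which joins secreted IgM and IgA, 1.70.

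Many different antibody segments were present, although similar segments may share reads. Of 350 immunoglobulin variable segments in the table, 149 to 170 reached 1 RPKM in each batch 3 library, compared with 10 to 51 in batch 1 and 9 to 27 in batch 2. Their summed level was 3676 to 4166 RPKM in batch 3 and 39.7 to 667 in batches 1 and 2. Genes of B cell and T cell precursors were not part of it, with Rag1 and Igll1 listed at 0 and Dntt averaging 0.316 RPKM. T and NK cell genes were at low levels: 13 of 17 tested T cell genes were higher, but the highest, Trbc2, averaged 26.9 RPKM, Cd3e averaged 3.04 and was not called, and Ccl5 at 157 was the only NK list member above 10 RPKM.

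Mast cell proteases were also present. Of the 13 members of the mast cell and basophil list 7 were tested and 5 were higher. Tpsab1, a mast cell tryptase, had 184, 167, 176, 168 and 178 RPKM. It was listed at 0 in all 10 libraries of batches 1 and 2, so it passed the filter through batch 3 alone. The chymases Cma1 and Mcpt4 averaged 159 and 141 RPKM, Tpsb2 110 and Cpa3 63.4, all called higher. The receptor genes Kit and Fcer1a averaged 3.04 and 2.00, and Mcpt8, a basophil protease, 0.0696. For eosinophils, Epx and Prg3 were listed at 0 in all 5 libraries.

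Secretory genes of the conducting airway were also far higher in batch 3. Scgb1a1, the secretoglobin of club cells (chromosome 19 from 9083636 to 9087958), was at 947, 904, 944, 965 and 839 RPKM. In batches 1 and 2 it had a median of 0 and a highest value of 0.803, and the log2 difference was 9.75 (SE 0.22, adjusted p = 1.62e-11 by limma). Bpifa1, an airway surface protein, had 687 to 784 RPKM against at most 0.458. Scgb3a2, with 61.6 to 72.3 RPKM, and the club cell cytochrome Cyp2f2, with 42.6 to 50.4, were listed at 0 in all 10 other libraries. Of 18 airway secretory genes 13 were tested, of which 11 were higher and 1 (Cldn10) was lower, with a median of 4.40. Scgb1a1, Bpifa1, Scgb3a2 and Cyp2f2 all passed the filter through batch 3 alone, and the mucins Muc5b and Muc5ac averaged under 0.02 RPKM. All 18 members summed to 2004 to 2281 RPKM in batch 3 and to 48.5 to 229 in batches 1 and 2.

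The rest of the lung was thinly represented. Of 8 tested genes of the airway ciliated and motile cilium list 0 were higher and 1 was lower. That list summed to 12.9 to 17.9 RPKM in the 4 progenitor libraries of batch 3, but to 2111 in NSC 3. Of 4 tested airway basal genes 1 was higher and 1 lower. In the alveolar type 2 list 11 of 18 genes were tested and 8 were higher. The leading ones were Cd36 at 318 RPKM, Ctsh at 311 and Lyz1 at 101, which macrophages express too. The surfactant genes were low, with Sftpc at 12.1 RPKM in NSC 3 and 5.91 to 7.56 in the others, Sftpb at 2.23 on average and Sftpa1 at 0.864. Of 9 alveolar type 1 genes 1 was higher and 4 were lower, and Ager averaged 0.340 RPKM. Of 8 pan-epithelial genes 3 were higher, Epcam among them at 2.89 RPKM, while Cdh1 averaged 0.486. Lung endothelium and mesenchyme had 2 genes higher and 5 lower of 11.

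Other organs were near the floor. The kidney list summed to at most 0.270 RPKM in any batch 3 library and had no member that passed the filter, the adipocyte list to at most 2.73, the testis list to at most 2.16 and the acinar pancreas list to at most 3.64. In the hepatocyte list Alb averaged 0.0502 RPKM and Afp 14.6, the latter called higher by 2.84. Anpep, an aminopeptidase that myeloid cells share with intestine and pericytes, averaged 123 RPKM and was the highest member of both of those lists.

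**Figure D3:**
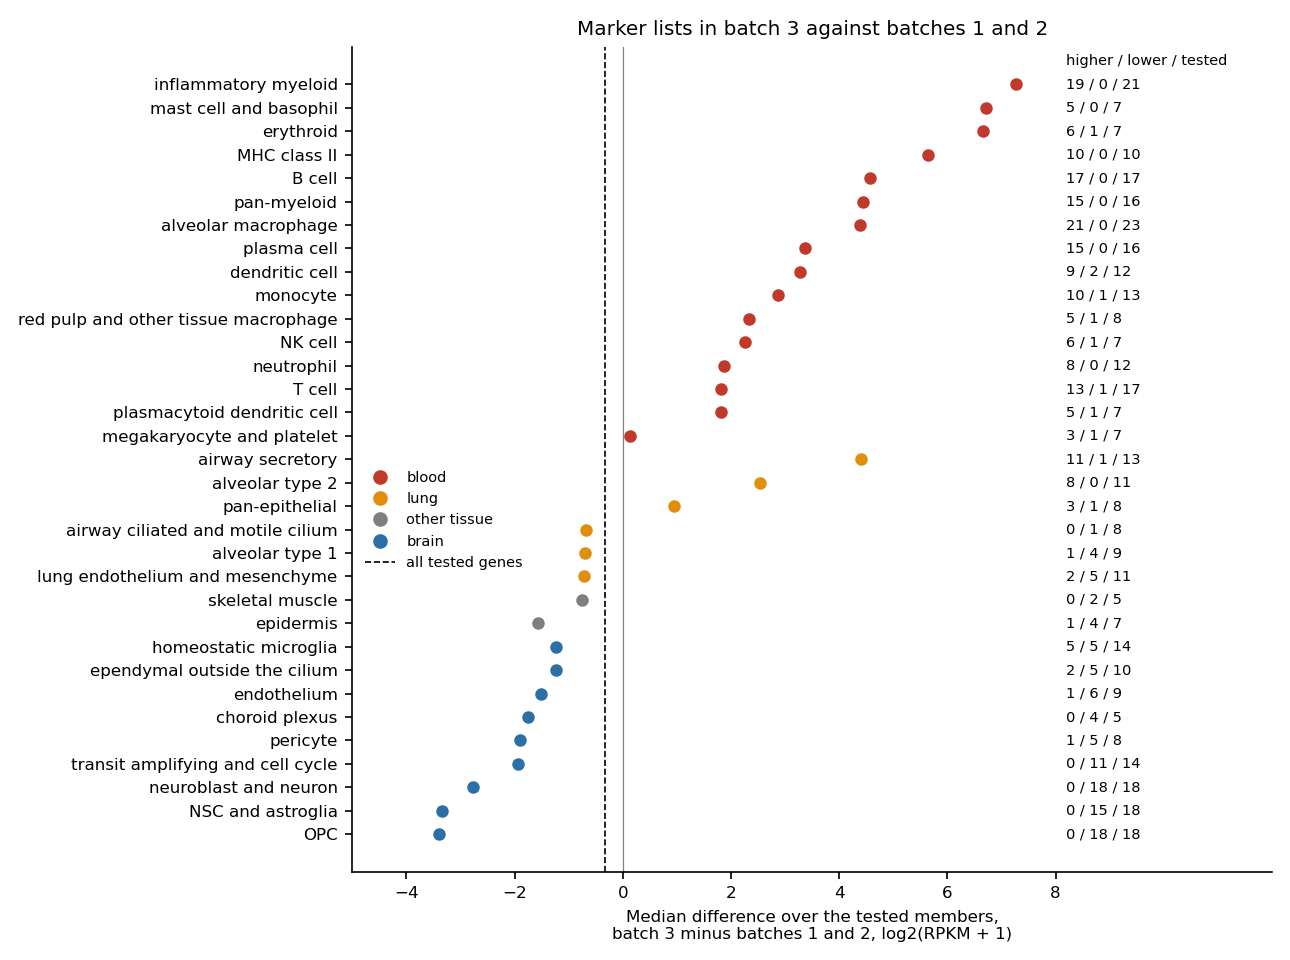
Median log2 difference, batch 3 minus batches 1 and 2, of each marker list of a cell type or tissue with at least 5 tested members, with the counts called higher, called lower and tested at the right. The dashed line is the median of all tested genes (-0.32). Inflammatory myeloid, mast cell, erythroid and MHC class II lists lie farthest to the right, and OPC, astroglial and neuronal lists farthest to the left.

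The genes that define the sorted populations were correspondingly low. All 18 oligodendrocyte progenitor (OPC) genes and all 18 neuroblast and neuron genes fell, with medians of -3.39 and -2.76, as did 15 of 18 tested NSC and astroglial genes, with a median of -3.34. Serpine2, a protease inhibitor of glia and progenitors, had the largest fall. It stood at 1.91, 1.93, 0.929, 1.26 and 3.28 RPKM in batch 3 and from 56.5 to 2098 with a median of 403 in batches 1 and 2, a difference of -6.99 (SE 0.68, adjusted p = 3.79e-06). The glial fatty acid-binding protein Fabp7 kept the highest level among astroglial genes, 140 to 239 RPKM, although it lay below the 301 to 14732 of the others. Sox2 and Slc1a3 fell by 4.64 and 4.61 on the log2 scale, and Dlx2, a transcription factor of interneuron progenitors, by 4.11.

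Of the genes for the antigens used in sorting, Prom1 (CD133) had 0.255 to 1.36 RPKM in the 4 progenitor libraries of batch 3, below the 5.12 to 84.2 of batches 1 and 2, while NSC 3 lay inside that range (log2 difference -2.39, SE 0.26, adjusted p = 1.16e-05). Pdgfra (CD140a) had 1.15 RPKM in NSC 3 and 2.18 to 3.84 in the other 4, at most 803 in batches 1 and 2, and a difference of -2.97 (adjusted p = 0.0173). Its call was lost under 5 of 28 alternatives, where adjusted p rose to at most 0.111. Cspg4 (NG2) stayed under 0.4 RPKM in all 5 and fell by 3.08. Fut4, an enzyme that makes the LeX epitope, was low in both groups and did not pass the test (difference -0.12, adjusted p = 0.791). GRP3 3 and PFMP 3 were the highest of batch 3 for both Pdgfra and Cspg4.

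Microglial genes split along the same line. C1qb, C1qc, C1qa and Trem2, which many macrophages share, averaged 932, 681, 565 and 302 RPKM, but the microglia-restricted Tmem119, P2ry12, Sall1 and Cx3cr1 averaged 0.985, 1.20, 0.0859 and 0.698. The list as a whole had 5 genes higher and 5 lower of 14. Genes of early growth were low too: 12 of 14 tested members of the neonatal growth list fell, among them Igf2, with 0.00624 to 0.670 RPKM against 0.967 to 116, and Ndn, with a mean of 4.31 against a median of 168. Cdkn1c rose by 2.77. Of the dividing-cell list 11 of 14 genes fell and 0 rose, with Pcna at 254 RPKM not called.

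Stress genes diverged. Hspa1b, an inducible heat shock protein, had 34.8 to 45.5 RPKM in batch 3 and at most 1.61 in the others, and Atf3 rose by 4.60, whereas the immediate early genes Fos and Egr1 fell by 4.62 and 5.41 and lay below all 10 other libraries. Mitochondrial transcripts held 14.3% to 15.2% of the RPKM sum in batch 3, within the 7.89% to 20.6% of batches 1 and 2. Common housekeeping genes were split, with 3 higher, 3 lower and 8 not called of 14. Xist, expressed from the inactive X, averaged 10.7 RPKM and the Y-linked Eif2s3y 6.24, both above 0 in every batch 3 library.

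Within batch 3, differences between populations were small. The median over genes of the SD between the 5 libraries was 0.176 on the log2 scale, against 0.770 in batch 1 and 0.917 in batch 2. Of the 9836 tested genes with at least 5 RPKM in 1 batch 3 library, 1604 (16.3%) varied by 1 log2 unit or more between the lowest and the highest library, whereas 94.1% did in batch 1 and 96.1% in batch 2. Depth was also greater in batch 3, and its part in the narrower spread was not tested.

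The differences that remained were set against those of batches 1 and 2. The mean of each batch was removed from each gene, and each batch 3 library was correlated over genes with the average of batches 1 and 2 for each population. The mean r with the own population was 0.155, against -0.035 with other populations. Among the 120 ways to pair 5 libraries with 5 populations none gave a higher mean (exact permutation test, one-sided p = 0.00833, the smallest this design can give). With the 113 tested genes of the brain lists alone the mean r was 0.479, with the same p. Without the NSC libraries, a check chosen after the values were seen, the mean r was 0.038, which again no other of the 24 pairings exceeded (exact permutation test, one-sided p = 0.0417, the smallest that 4 libraries can give).

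The match was uneven. NSC 3 had r = 0.425 with the NSC average and between -0.278 and -0.054 with the others. GRP2/MP3 3 (r = 0.174) and PFMP 3 (r = 0.064) also ranked their own population first. BNAP/GRP1 3 was nearest to GRP2/MP3 (r = 0.101 against 0.071 with its own), and GRP3 3 was nearer to GRP2/MP3 (0.120) and BNAP/GRP1 (0.052) than to its own population (0.042). The individual rows were not tested, and genes are not independent replicates.

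**Figure D4:**
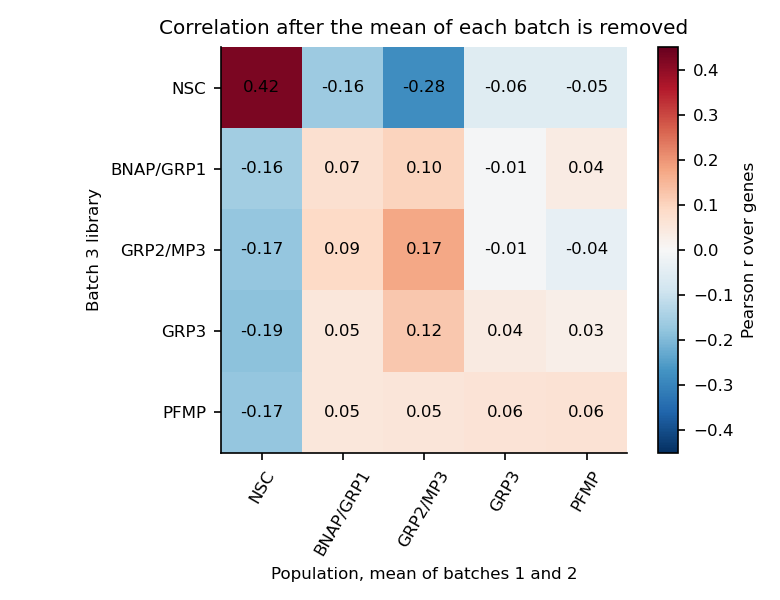
Pearson r over 16947 genes between each batch 3 library (rows) and the mean of batches 1 and 2 for each population (columns), after the mean of the 5 libraries of each batch was subtracted. The NSC cell, at r = 0.425, is the strongest match, and the other diagonal cells run from 0.042 to 0.174.

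The clearest difference within batch 3 was in motile cilium genes, which were high in NSC 3. Airway ciliated cells share these genes with ependymal cells, and their source in NSC 3 was not tested. The summed level of the 20 cilium genes was 2111 RPKM in NSC 3 and 12.9 to 17.9 in the other 4 batch 3 libraries, and it was 6742 in NSC 1 and 25056 in NSC 2. NSC 3 thus had 31.3% and 8.43% of the levels of NSC 1 and NSC 2, and 152 times the median of the other batch 3 libraries, where NSC 1 and NSC 2 had 356 and 1528 times those of their batches. Crygn had 359 RPKM in NSC 3 and was listed at 0 in the other 4. The ciliary dynein light chain gene Dynlrb2 had 564 RPKM against at most 2.81, and Foxj1, the transcription factor that drives motile ciliogenesis, had 34.3 against at most 0.199.

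Of the 50 genes by which NSC 3 most exceeded the other 4 libraries, among 8521 with at least 5 RPKM in batch 3, 43 (86.0%) were also above the other populations in NSC 1 and NSC 2, against 31.1% of all 8521. Of the 50 most lowered in NSC 3, 16 were lowered in both, against 35.5%. With protein-coding genes alone, a restriction chosen after the values were seen, the counts were 50 and 26 of 50, and the shares over 8149 genes were 32.0% and 35.7%. Meig1, Crygn, Fam183b, Dynlrb2 and Fam166a led the raised genes of NSC 3, with differences of 8.50, 8.49, 8.30, 8.11 and 7.63 on the log2 scale. In the progenitor libraries, of the 50 most raised protein-coding genes 10 in PFMP 3, 14 in GRP3 3, 12 in GRP2/MP3 3 and 10 in BNAP/GRP1 3 were raised in both earlier batches, and the share of all such genes was 21.4%, 43.4%, 21.5% and 18%, so GRP3 3 lay below it. Of the 50 most lowered, 36, 34, 35 and 36 were lowered in both, where all such genes gave 28.9%, 25.5%, 23.8% and 32.0%. Without the restriction the lowered counts were 31, 25, 22 and 17 of 50, against 28.7%, 25.4%, 23.5% and 31.5% of genes, so that BNAP/GRP1 3 was near its background. The lowered genes in progenitors included those cilium genes again, such as Fam183b in BNAP/GRP1 3 and Meig1 in GRP2/MP3 3 and GRP3 3, whose differences include the high NSC 3 value, so these shares are not independent of the NSC result.

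OPC genes kept a trace of their excess in GRP3 and PFMP. The list summed to 20.9 RPKM in GRP3 3 and 23.5 in PFMP 3, and to 7.86, 7.52 and 4.80 in NSC 3, BNAP/GRP1 3 and GRP2/MP3 3. In batches 1 and 2 GRP3 had 4679 and 5025 and PFMP 3251 and 4256, so that batch 3 held 0.416% to 0.723% of those levels. GRP3 was above PFMP in batches 1 and 2 but not in batch 3. Of the 18 members, 10 were under 1 RPKM in every batch 3 library. Olig1, a transcription factor of the oligodendrocyte lineage, had 7.70 RPKM in GRP3 3 and 7.54 in PFMP 3 and at most 1.22 in the other 3. It exceeded the other libraries of the batch by 1.75 and 1.72 on the log2 scale, where the differences in batches 1 and 2 were 3.57 to 4.96. Gap43, a growth-cone protein high in both GRP3 and PFMP of batches 1 and 2 (877 to 1201 RPKM), had 22.5 RPKM in PFMP 3 but only 1.60 in GRP3 3, the lowest of the batch.

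The named rule, applied to all genes rather than protein-coding ones, mostly returned short RNAs outside NSC 3. In PFMP 3 the 5 most raised were Rnu3b1, n-R5s39, Mir6363, Snora70 and Snord12, and in GRP3 3 they were Snord16a, mt-Tp, Rn7s1, Snord35a and Snord35b, each at 0 in at least 1 other library of the batch. In GRP2/MP3 3 Snord8 led at 53.9 RPKM, and in BNAP/GRP1 3 AL589651.4 led at 123. Of the 50 most raised genes of all kinds, 8 in PFMP 3, 12 in GRP3 3, 9 in GRP2/MP3 3 and 11 in BNAP/GRP1 3 were raised in both earlier batches, where the shares over 8521 genes were 21.1%, 42.3%, 21.2% and 17.8%.

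**Figure D5:**
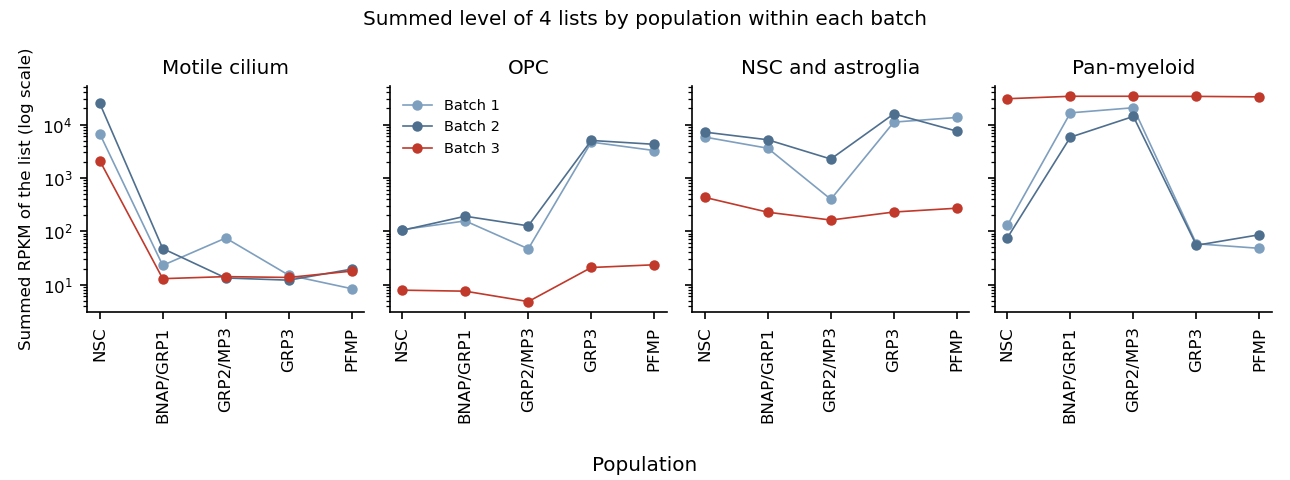
Summed RPKM (log axis) of the motile cilium, OPC, NSC and astroglia, and pan-myeloid lists by population, 1 line per batch. In batch 3 the cilium line still peaks at NSC and the OPC line still rises at GRP3 and PFMP, both below batches 1 and 2, while the pan-myeloid line is flat between 30441 and 33835 RPKM.

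NSC 3 also stood slightly below the other 4 libraries in the shared profile. Over the 427 genes called higher that averaged at least 100 RPKM in batch 3, the median ratio of NSC 3 to the mean of the other 4 was 0.916 (quartiles 0.893 and 0.944), and it was 1.02 for each of the other 4 libraries. The pan-myeloid list summed to 30441 RPKM in NSC 3 and 32995 to 33835 in the others, MHC class II to 4966 against 5424 to 5567. Whether this and the cilium genes of NSC 3 are connected was not tested.

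Whether the difference of batch 3 depended on the population was tested by interaction terms. Between GRP3 with PFMP and BNAP/GRP1 with GRP2/MP3 it differed for 477 genes (2.81%). Of these, 219 had the smaller rise or larger fall in GRP3 and PFMP, and 258 went the other way. Their leaders were myeloid: Tyrobp, a myeloid signalling adaptor, had 1320 to 1464 RPKM in every batch 3 library, and the interaction was 8.40 on the log2 scale (SE 0.97, adjusted p = 0.00618 by limma). C1qa, Fcer1g, Ly86, Cd52 and Ccl3 were among the others named. In batches 1 and 2 the pan-myeloid list summed to 5786 to 20626 RPKM in BNAP/GRP1 and GRP2/MP3 and to 47.8 to 85.9 in GRP3 and PFMP. In batch 3 that list summed to 30441 to 33835 RPKM in all 5 libraries. The 219 genes of the other direction are not described here. The interaction gave 0 calls when batch 2 alone, or batches 1, 2 and 4, were the comparison, and 0 to 10 calls without any 1 of the 4 progenitor libraries of batch 3.

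Between NSC and the progenitors the difference of batch 3 was called for only 18 genes (0.106%, with 1108 at an unadjusted p under 0.05), all 18 with the larger fall or smaller rise in NSC. Pltp, a phospholipid transfer protein, had the largest at -5.39. It had 151 to 164 RPKM in all batch 3 libraries and its highest value elsewhere, 139, in NSC 2. Hdc, which makes histamine, had 27.8 RPKM in NSC 3 and 1.65 to 2.92 in the other 4, and 1360 in NSC 1 and 745 in NSC 2 (interaction -5.23, SE 0.62, adjusted p = 0.0279 by limma). Pltp, Hdc and the other genes named from this interaction each lost their call under 14 to 21 of 25 alternatives.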

How the data were processed

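The authors deposited 1 table of RPKM values for 45705 mouse genes in 20 libraries. Per the labels and the methods of the study, adapters were removed with cutadapt 3.4, STAR 2.6.1 placed the reads on GRCm38 and Salmon 1.9.0 estimated expression. The gene lengths and read totals behind the RPKM are not given in the sources used here. Columns without values (26) were not used. Values were analysed as log2(RPKM + 1) with limma 3.58.1 in R 4.3.3, with a term for batch 3, population as the replicate block, an intensity trend and Benjamini-Hochberg adjustment over all 16947 genes at 0.05. The numbers pair libraries because a block holds the same sorted population. The batch 3 libraries, gene lists and named genes were chosen with earlier results of these data known. Named genes were the 15 largest rises and falls past the threshold with all 10 within-population differences alike in sign, the highest members of each list, the antigen genes, and leaders within batch 3 and of each interaction, without predicted or repeated symbols. Other genes named from within the lists, and Gap43, were chosen after their values were seen. Some genes that met these rules are not reported here. Positions are from GENCODE vM21 (45142 genes matched by identifier). The fit was checked on simulated data. The depth of a library is known only in relative terms, so no counting interval is given. Alternatives were another pseudocount, filters, scalings, comparison batches and each library left out.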

Additional observations from a re-analysis of the deposited data

Results flagged for a closer look

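In 17 of 88 sets of 5 batch 3 values, 1 library stood apart by Dixon's test at the 95% level, where chance marks about 1 in 20. The sets are not independent, since they share the same libraries and genes such as Cd74 and Lyz2 also enter list sums. NSC 3 was high in the summed RPKM of the cilium list (2111), ependymal genes outside the cilium (2230), choroid plexus (65.4), pan-epithelial (55.5), epidermis (62.5), alveolar type 1 (171) and neonatal growth (86.2) genes. It was low in monocyte (1182), pan-myeloid (30441), MHC class II (4966), immediate early and heat shock (1517) and common housekeeping (19443) genes. The same library was lowest for Cd74 (2010 RPKM), Lyz2 (20269), Bpifa1 (687) and H2-Aa (1389). PFMP 3 was high in the mast cell and basophil list (701).

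The difference of batch 3 depended on NSC identity by an interaction term for Pltp (-5.39 on the log2 scale), Hdc (-5.23), Calml4 (-5.23), Prtn3 (-5.11), Fam166b (-4.78), Spint2 (-4.68), Vpreb3 (-4.53), Traf3ip2 (-4.45) and Ccno (-4.36). Between GRP3 with PFMP and BNAP/GRP1 with GRP2/MP3 it differed for Tyrobp (8.40), Fcer1g (8.29), C1qb (8.19), Ccl3 (8.12), Mir142hg (8.12), C1qa (7.89), Ly86 (7.73), Cd52 (7.67), C1qc (7.57) and Bcl2a1b (7.55).

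Batch 4, which entered no main comparison, lay above all 10 libraries of batches 1 and 2 in each of its 5 libraries for some lists. Its lowest summed level was 26.5 RPKM for intestinal epithelium genes, against at most 20.4, and 21.5 for acinar pancreas genes, against at most 18.1. For T cell receptor variable segments it was 180 RPKM, against at most 151. In NSC 4, BNAP/GRP1 4 and GRP3 4 between 30705 and 37854 genes reached 1 RPKM, against 13904 to 17805 in batches 1 and 2. What these sums reflect was not tested.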

How the results depend on the processing

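The counts of genes higher and lower stayed within 1.5 times of 4095 and 5731 except at a mean RPKM of at least 5, which tests fewer genes and gave 2593 and 3187. Without the replicate block of population they were 4008 and 5318. Leaving out 1 library at a time gave 3610 to 4246 and 4584 to 5908, and without the NSC libraries, chosen after seeing the data, 3750 and 5131. Alternatives were run for 34 genes of the main comparison, the 15 largest rises, the 15 largest falls and the 4 antigen genes, and not for the other genes named. Among these 34, Pdgfra was the only called gene to lose its call, and Fut4, not called at -0.12, turned to 0.17 at a pseudocount of 0.1, 0.16 under quantile normalization, and ranged from -0.26 to 0.08 without 1 library. List medians changed sign in 4 of 318 cases: megakaryocyte and platelet (-0.19) and ribosomal proteins (0.56) against batches 1, 2 and 4, ribosomal proteins under quantile normalization (0.03), and immediate early genes against batch 2 alone (-0.23). The NSC interaction (18 genes) gave 1 gene at a pseudocount of 0.1, 454 with no filter, 31 at a mean RPKM of at least 5, 34 under quantile normalization, 1 with batches 1 and 2 as separate terms, 0 against batch 1 alone, 0 against batch 2 alone, 0 against batches 1, 2 and 4, 2 with libraries of a batch correlated, and 0 to 26 without 1 library. The other interaction (477 genes) gave 278 with no filter, 0 against batch 2 alone, 0 against batches 1, 2 and 4, and 0 to 910 without 1 library. Both interactions therefore depend on these choices, and the cause was not tested. The population match kept its side of the threshold throughout, with r from 0.038 to 0.479. Depth is known only in relative terms, and with 1 batch 3 library per population no difference within batch 3 has a replicate.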

Other observations

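Some batch 3 transcripts outside the lists, chosen after their values were seen, encode ferritin chains, proteases and a protease inhibitor. The ferritin chains Fth1 and Ftl1 had 32446 and 28175 RPKM in NSC 3 and 36397 and 31433 in PFMP 3, against medians of 1285 and 840 in batches 1 and 2. Their highest values there were 2841 and 6448, both in GRP2/MP3 1. The lysosomal protease gene Ctsd had 4646 and 4841 RPKM in NSC 3 and PFMP 3 against a median of 47.7 and at most 2291, in BNAP/GRP1 1. Slpi, a secreted protease inhibitor of macrophages and airway epithelium, had 4283 and 4835 against a median of 6.76 and at most 939. Mmp12, the macrophage elastase, had 226 and 224 against a median of 0.419 and at most 3.38. All 5 passed the test.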
